A study of Mus musculus with 12 samples.

Results

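C2C12GFP cells, an immortalized mouse myoblast line that carries green fluorescent protein and can fuse into myotubes, were compared on 2 protein coatings by RNA-seq: 3 samples on fibronectin-coated plates and 3 samples on Geltrex™-coated plates, 6 of the 12 samples of the study. The members of the comparison were these 6 samples, chosen by their coating labels, and the genes were the 14499 of 55536 in the count table that passed a filter on low counts. The other 6 samples, 3 on uncoated plates (control) and 3 on Collagen I, entered the same statistical model and are given only to place a difference. All groups were the same cells and differed by the plate surface, and the coatings also differed in how they were laid down: fibronectin was a purified protein applied from serum-free medium, whereas Geltrex™, a basement membrane extract rich in laminin, Collagen IV, and entactin, was applied as a thin gel. The difference between these 2 groups therefore covers the protein, the form of the layer, and anything else in the extract, and these cannot be told apart. The labels give the cell line as C2C12 and the cell type as skeletal muscle, the time at which the RNA was taken is not given in the sources used here, and no source says whether the 3 samples of a coating came from separate cultures, so the p-values measure only the spread between these samples.

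Fibronectin is a matrix glycoprotein that cells hold through integrins such as α5β1 and the αv integrins, and it is laid down around muscle progenitors during regeneration. Laminin and Collagen IV are the main constituents of the basement membrane that surrounds each mature muscle fiber, where they are bound by other integrins, including α7β1, and by dystroglycan. Cells also read soluble signals, and 1 of the most readily seen is the interferon response, in which transcription factors such as IRF9 act on a DNA element in the promoters of antiviral genes.

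Library depth, as the total of gene counts, was 24614474 to 27351766 on fibronectin and 22520404 to 24477732 on Geltrex™. Levels are in CPM, the count divided by the library size after TMM scaling, always in the order of replicates 1, 2, and 3. Differences are log2 fold changes, Geltrex™ minus fibronectin, ± SE from edgeR's quasi-likelihood test, with p-values adjusted by the Benjamini-Hochberg method over the 14499 genes. The 3 Geltrex™ samples stood apart from the other groups in their spread: the biological coefficient of variation was 0.0374 on Geltrex™ against 0.114 on fibronectin, 0.112 in the control, and 0.120 on Collagen I. Their counts still differed by more than counting noise, with a chi-square per degree of freedom of 3.54, so they were not 1 library deposited 3 times. Technical replicates can differ by this much as well, and whether the Geltrex™ samples are such replicates cannot be told from these data. They enter as 3 samples, and for some lists counts of genes are also given below with the 3 Geltrex™ libraries summed into 1. A count given without this check should not be read as holding under it. In a principal component analysis, PC1 (44.9% of variance) placed both coatings on the positive side and the control and Collagen I on the negative side, and PC2 (20.7%) separated fibronectin (scores of -41.2 to -19.5) from Geltrex™ (27.1 to 28). Skeletal muscle markers were present in all 6 samples, with a summed level over 7 markers of 2060 to 2399 CPM on fibronectin and 2831 to 3053 CPM on Geltrex™. The 13 macrophage and blood markers summed to 9.59 to 11.1 CPM on fibronectin and 10.7 to 11.3 CPM on Geltrex™, *Adgre1* and *Hbb-bs* were at 0 counts in all 6 samples, and the 3 markers that could be tested did not pass the test.

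**Figure D1:**
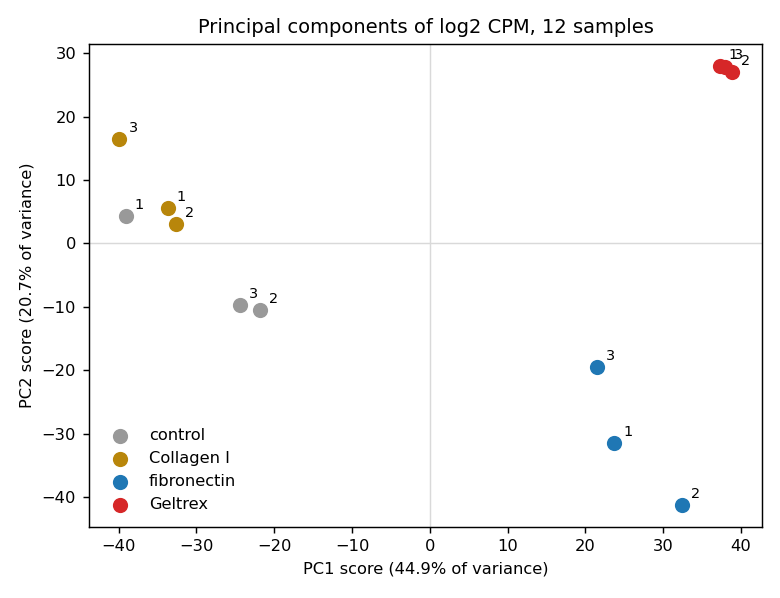
Scores of the 12 samples on the first 2 principal components of log2 CPM, 1 point per sample, numbered by replicate and colored by coating. The 3 Geltrex™ samples lie almost on one another at PC2 scores of 27.1 to 28, and the 3 fibronectin samples lie between -41.2 and -19.5.

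Between the coatings 577 genes (3.98% of those tested) passed an adjusted p of 0.05 with a fold change of at least 2 and are called DEGs here, 328 of them higher on Geltrex™ (2.26%) and 249 lower (1.72%). Without a minimum fold change 2805 genes passed (19.3%), of which 1314 were higher on Geltrex™ (9.06%) and 1491 were lower (10.3%), and the median of all tested genes was 0.00 on the log2 scale. The 2 groups did not overlap in 572 of the 577 DEGs, while 42.7% of all tested genes did not overlap. Large differences were more often upward: 111 DEGs were higher and 39 lower past a log2 fold change of 2. The control placed most of the change on the Geltrex™ side, with values that share its samples: DEGs higher on Geltrex™ had a median log2 fold change from the control of 1.35 on Geltrex™ and -0.28 on fibronectin, and DEGs lower on Geltrex™ had medians of -1.24 and 0.21. With the Geltrex™ libraries summed into 1 sample 353 DEGs were called, 347 of them among the 577, and 703 genes passed without a minimum fold change.

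**Figure D2:**
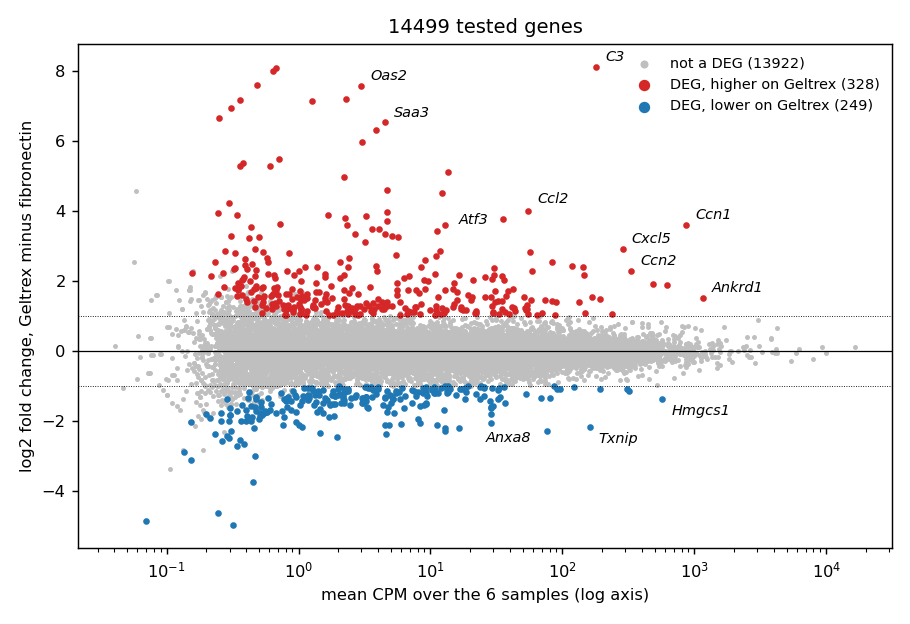
Each point is 1 of the 14499 tested genes, with the mean CPM over the 6 samples on a log axis and the log2 fold change, Geltrex™ minus fibronectin, on the vertical axis. Red points are the 328 DEGs higher on Geltrex™ and blue points the 249 DEGs lower, dotted lines mark a fold change of 2, and *C3* is the highest among genes with over 100 CPM.

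The interferon-stimulated genes were higher on Geltrex™. Of 53 listed, 43 passed the low-count filter and 38 of these rose on Geltrex™ and 0 fell, against 9.06% and 10.3% of all genes, with a median log2 fold change of 2.03 and 31 DEGs. Only 32 of the 43 had 10 or more counts in every fibronectin sample, and the others could have passed the filter by their Geltrex™ levels alone, so these values describe the tested members and not the whole list. Where at least 10 counts were required in every sample 24 of 29 members rose, and the median was 1.42. Summing the Geltrex™ libraries left 35 higher, and leaving out any 1 sample left 37 or 38. The median difference of the list from the control was 2.11 on Geltrex™ and 0.15 on fibronectin. Genes of this kind carry an interferon-stimulated response element (ISRE), read here as GAAANNGAAA on either strand, so the promoters were searched from 250 bases before to 50 bases after each RefSeq transcript start. The element was in 392 of 13185 promoters of the 10312 tested genes that matched the RefSeq table (2.97%), in 15 of 38 promoters of the interferon-stimulated list (39.5%), and in 8 of 10 promoters of the interferon-inducible GTPases (80.0%). A match is a run of letters and not a measured binding site. Both lists were made of genes known to answer interferon, so these shares describe the lists and not the difference between the coatings. The windows below were taken from genes with a match. *Oas2*, *Ifi44*, *Iigp1*, *Usp18*, and *Oasl2*, with higher fold changes than *Gbp3*, were not among the genes with a match. They either lack the element or had no promoter among those searched. The windows lie on GRCm38.p6 in RefSeq at chr19:34640765-34640833, plus strand (*Ifit1*), chr19:34583353-34583436, plus strand (*Ifit3*), chr5:120907526-120907565, minus strand (*Oas1a*), chr7:104465200-104465249, minus strand (*Trim30a*), chr3:142559979-142560034, plus strand (*Gbp3*), chr3:142530263-142530312, plus strand (*Gbp7*), chr11:58199502-58199551, plus strand (*Igtp*), and chr11:58214893-58214942, plus strand (*Irgm2*). All of them lie upstream of the start, read 5′ to 3′ on the gene's strand, and have the element in capitals.
Ifit1: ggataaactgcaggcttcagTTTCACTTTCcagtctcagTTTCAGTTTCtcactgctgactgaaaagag
Ifit3: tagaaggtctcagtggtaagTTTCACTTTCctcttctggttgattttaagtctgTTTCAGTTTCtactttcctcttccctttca
Oas1a: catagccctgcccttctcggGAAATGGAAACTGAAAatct
Trim30a: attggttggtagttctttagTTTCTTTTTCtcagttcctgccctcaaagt
Gbp3: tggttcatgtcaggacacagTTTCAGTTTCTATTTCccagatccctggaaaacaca
Gbp7: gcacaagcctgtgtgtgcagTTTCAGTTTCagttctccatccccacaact
Igtp: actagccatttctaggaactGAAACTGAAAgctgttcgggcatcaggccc
Irgm2: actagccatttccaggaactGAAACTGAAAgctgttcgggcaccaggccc
In *Ifit1* and *Ifit3* 2 separate copies are present, in *Oas1a* and *Gbp3* 2 copies overlap, and the windows of the paralogs *Igtp* and *Irgm2* are nearly the same sequence.

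*Ifit1*, which binds foreign RNA that lacks a proper cap, was at 0.743, 0.754, and 0.777 CPM on fibronectin and 19.7, 22.3, and 37.2 CPM on Geltrex™. All Geltrex™ samples were far above all fibronectin samples, and replicate 3 was the highest of them, with a log2 fold change of 5.11 ± 0.36 (adjusted p = 8.2e-08). Its relative *Ifit3* was at 1.75, 2.26, and 1.86 CPM on fibronectin and 19, 20.8, and 31.5 CPM on Geltrex™, again without overlap and with replicate 3 highest, a difference of 3.60 ± 0.20 (adjusted p = 5.8e-09). *Oasl2*, of the oligoadenylate synthetase family that senses double-stranded RNA, was at 1.15, 0.795, and 1.17 CPM on fibronectin and 20.1, 21.6, and 29.1 CPM on Geltrex™, or 4.49 ± 0.24 (adjusted p = 5.3e-09). *Usp18*, the protease that removes the ubiquitin-like protein ISG15 and damps interferon receptor signals, was at 0.0743, 0.293, and 0.0388 CPM on fibronectin and 3.2, 3.58, and 6.0 CPM on Geltrex™. It rose by 4.97 ± 0.48 (adjusted p = 2.4e-06), and by 6.10 without fibronectin replicate 2, which held most of its fibronectin counts. *Ifi44* was at 0.111, 0.0419, and 0.117 CPM on fibronectin and 5.98, 6.18, and 10.6 CPM on Geltrex™, a difference of 6.30 ± 0.40 (adjusted p = 3.1e-08), on only 7 counts in the 3 fibronectin libraries together.

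The genes nearest to 0 on fibronectin need their counts rather than a fitted fold. *Oas2*, an oligoadenylate synthetase whose product activates RNase L, had 2 counts in all fibronectin libraries and 413 in the Geltrex™ libraries, a ratio of CPM of 226 with an exact 95% counting interval of 62.3 to 1875. *Oas1a* had 1 count against 177, a ratio of 194 (34.4 to 7704), and *Trim30a*, a tripartite-motif protein induced by interferon, had 2 against 317, a ratio of 174 (47.7 to 1440.5). These intervals cover counting error only. Fibronectin replicate 2 held every fibronectin count of *Oas2* and *Oas1a*, so that both genes were at 0 on fibronectin without it. Their fitted log2 fold changes of 7.57 and 7.13 then became 10.2 and 8.97, values that depend on the prior count and are no bound. In each of the 3 genes every Geltrex™ sample was above every fibronectin sample, with Geltrex™ levels of 4.48, 5.81, and 7.53 CPM for *Oas2*, 2.14, 2.72, and 2.75 CPM for *Oas1a*, and 4.78, 4.9, and 3.88 CPM for *Trim30a*, and adjusted p-values of 3.9e-07, 2.2e-06, and 7.6e-08. Among better counted members, *Lgals3bp*, a secreted galectin-binding protein, was at 14.4, 14.6, and 13.7 CPM on fibronectin and 50.8, 64.1, and 60.1 CPM on Geltrex™, a log2 fold change of 2.03 ± 0.10 (adjusted p = 3.2e-09), and *Ifi27l2a* was at 1.75, 1.42, and 2.56 CPM on fibronectin and 15.3, 25.5, and 20.6 CPM on Geltrex™, a change of 3.41 ± 0.22 (adjusted p = 3.8e-08). Geltrex™ replicate 3 was the highest of its group in 34 of the 43 tested interferon-stimulated genes and replicate 1 the lowest in 29, so the group that varied least over all genes did vary in these. The families share similar sequence, and how the counting treated reads that fit both *Oas1a* and its copies, *Ifit3* and *Ifit3b*, or the *Tgtp* pair is not given, so the split within a family is uncertain.

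Among the interferon-inducible GTPases, which coat and break the vacuoles of intracellular microbes, 13 of the 13 tested members (of 16 listed) rose, with a median of 2.65 and 12 DEGs, and 12 still rose with the Geltrex™ libraries summed. Of all tested genes 9.06% rose. Only 9 of the 13 GTPases had 10 or more counts in every fibronectin sample. With 10 counts required in every sample 5 members were tested, all of which rose, with a lower median of 1.76. *Gbp3*, a guanylate-binding protein, was at 0.706, 0.502, and 0.466 CPM on fibronectin and 7.65, 9.19, and 9.65 CPM on Geltrex™, a difference of 3.96 ± 0.22 (adjusted p = 5.8e-09). *Gbp7* was at 0.409, 0.754, and 0.621 CPM on fibronectin and 5.77, 5.89, and 8.12 CPM on Geltrex™, or 3.47 ± 0.31 (adjusted p = 1.0e-06). Neither gene overlapped between the coatings, and both had fibronectin levels below 1 CPM. *Irgm2*, one of the regulatory members of the immunity-related family, was at 3.6, 2.39, and 2.8 CPM on fibronectin and 16.1, 18, and 23.3 CPM on Geltrex™ and rose by 2.70 ± 0.18 (adjusted p = 3.7e-08). *Igtp* was at 0.52, 0.293, and 0.427 CPM on fibronectin and 5.68, 5.19, and 7.35 CPM on Geltrex™ and rose by 3.85 ± 0.25 (adjusted p = 3.2e-08). *Iigp1*, an effector of the same family, had 7 counts over the fibronectin libraries against 414 on Geltrex™, with levels of 0.186, 0.0837, and 0 CPM on fibronectin and 5.47, 5.6, and 6.76 CPM on Geltrex™ and a fitted difference of 5.95 ± 0.45 (adjusted p = 2.0e-07). That value was 7.03 without fibronectin replicate 1, which held 5 of the 7 counts.

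The signaling genes of the pathway moved in both directions. Of 24 tested, 6 were higher on Geltrex™ and 5 were lower (25% and 20.8%, against 9.06% and 10.3% of all genes), and the median was 0.06. Leaving out any 1 sample gave 4 to 6 higher and 4 lower. Among those that rose were factors that interferon induces and that then act on its targets. *Irf7*, the factor that amplifies type I interferon production, was at 0.631, 0.879, and 0.932 CPM on fibronectin and 6.83, 6.71, and 11.1 CPM on Geltrex™, a change of 3.33 ± 0.29 (adjusted p = 6.7e-07). *Irf9*, a DNA-binding subunit of the complex that interferon receptors activate, was at 7.8, 8.83, and 8.82 CPM on fibronectin and 20.2, 21.1, and 28.4 CPM on Geltrex™, or 1.45 ± 0.14 (adjusted p = 3.2e-06). In both genes the coatings did not overlap. *Irf1* instead fell, with 37.7, 31.5, and 33.4 CPM on fibronectin and 23.4, 23.4, and 21.2 CPM on Geltrex™ and a change of -0.59 ± 0.09 (adjusted p = 0.00027). *Socs3*, a feedback inhibitor of cytokine receptors, also fell, with 18.3, 14.1, and 19.7 CPM on fibronectin and 10.1, 8.57, and 7.8 CPM on Geltrex™ and -0.98 ± 0.16 (adjusted p = 0.00042). The gene for interferon beta, *Ifnb1*, did not pass the low-count filter and was not tested.

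Genes of class I antigen presentation, also targets of interferons, were more often higher on Geltrex™ than all genes, at 83.3% against 9.06%. Only their RNA was measured. Of 18 tested genes 15 were higher and 0 lower, the median was 0.66, and 9 stayed higher with the Geltrex™ libraries summed. With 10 counts required in every sample 13 of 15 rose. *H2-K1*, a classical class I heavy chain, was at 10.4, 7.33, and 8.82 CPM on fibronectin and 21.4, 20.6, and 20.7 CPM on Geltrex™, a change of 1.24 ± 0.14 (adjusted p = 9.9e-06), and *H2-D1*, the other, was at 42.4, 31.4, and 49.4 CPM on fibronectin and 71.7, 75.5, and 69.2 CPM on Geltrex™, a change of 0.81 ± 0.14 (adjusted p = 0.00056). *Tapbp*, which loads peptides onto these chains, was at 55.3, 51, and 65.8 CPM on fibronectin and 85.9, 88.4, and 87.1 CPM on Geltrex™, or 0.60 ± 0.09 (adjusted p = 0.00021). The coatings did not overlap in these 3 genes, and the changes were smaller than those of the antiviral genes. Class I genes are near copies of one another, and reads may be split unevenly among them.

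*C3*, the central component of complement, had the largest log2 fold change of the named genes with all samples in the fit. It was at 1.11, 1.3, and 1.51 CPM on fibronectin and 408, 339, and 336 CPM on Geltrex™, and in the control at 0.875, 1.25, and 1.02 CPM. The 3 Geltrex™ samples lay far above the other 6 samples, with a log2 fold change from fibronectin of 8.11 ± 0.18 (adjusted p = 1.2e-13) and a fold of 275; the gene is at chr17:57203970-57228136 (GRCm38, minus strand, protein coding). The genes for the first proteases of the classical pathway were higher as well. *C1s1* was at 67.1, 76.2, and 79.96 CPM on fibronectin and 215, 182, and 186 CPM on Geltrex™, a change of 1.38 ± 0.11 (adjusted p = 3.0e-07), and *C1ra* was at 24.2, 22.6, and 26.8 CPM on fibronectin and 61.1, 58.3, and 54.4 CPM on Geltrex™, a change of 1.24 ± 0.11 (adjusted p = 6.5e-07). *Serping1*, which inhibits both of those proteases, was at 7.35, 8.04, and 7.46 CPM on fibronectin and 12.9, 13.5, and 11.9 CPM on Geltrex™, or 0.75 ± 0.14 (adjusted p = 0.0011). These were the 4 of 11 tested complement genes that passed, all higher and without overlap, and all 4 also passed with the Geltrex™ libraries summed. The 4 were 36.4% of the tested complement genes, whereas 9.06% of all genes were higher. Another acute-phase gene, *Saa3*, was at 0.0371, 0.209, and 0.0388 CPM on fibronectin and 9.18, 8.61, and 8.93 CPM on Geltrex™. It rose by 6.53 ± 0.39 (adjusted p = 1.3e-08), and by 7.69 without fibronectin replicate 2, on 7 fibronectin counts in all.

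Of the chemokines, the secreted attractants of leukocytes, and cytokines, which were listed together, 14 of 20 tested genes rose and 1 fell, with a median of 0.95 and 12 still higher with the Geltrex™ libraries summed. The 14 and the 1 were 70% and 5% of the tested members, against 9.06% and 10.3% of all genes. With 10 counts required in every sample 12 of 16 rose, and the median was 0.86. The call of the 1 that fell was lost without fibronectin replicate 1 or any Geltrex™ replicate. *Ccl2*, which draws monocytes, was at 6.05, 5.78, and 7.61 CPM on fibronectin and 117, 96.8, and 98.2 CPM on Geltrex™, a change of 4.0 ± 0.13 (adjusted p = 1.3e-11). *Cxcl5*, a neutrophil attractant, was at 53.7, 58.2, and 90.02 CPM on fibronectin and 524, 492, and 499.7 CPM on Geltrex™, or 2.91 ± 0.16 (adjusted p = 5.3e-09). *Cxcl1*, another, was at 16.2, 22.1, and 36.3 CPM on fibronectin and 163, 129, and 135 CPM on Geltrex™, or 2.52 ± 0.20 (adjusted p = 3.7e-07). None of the 3 overlapped, and replicate 3 was the highest fibronectin sample and replicate 1 the highest Geltrex™ sample in each. *Ccl7* (9.92, 13.2, and 16 CPM on fibronectin and 60.7, 55.2, and 54.3 CPM on Geltrex™) and the eosinophil attractant *Ccl11* (3.34, 4.1, and 4.39 CPM on fibronectin and 12.8, 12, and 12.1 CPM on Geltrex™) rose by 2.12 ± 0.17 (adjusted p = 2.4e-07) and 1.64 ± 0.19 (adjusted p = 1.5e-05). *Ccl2*, *Ccl7*, and *Ccl11* also differed from the control on fibronectin, with log2 fold changes of -1.11, -1.25, and -0.99, while on Geltrex™ these were 2.90, 0.87, and 0.65.

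Of the NF-kB subunits and targets, 8 of 17 tested were higher and 0 were lower, with a median of 0.36 and 5 left with the Geltrex™ libraries summed. The 8 were 47.1% of those tested, against 9.06% of all genes. *Nfkbiz*, an atypical inhibitor that is itself an NF-kB target, was at 10.7, 8.21, and 14 CPM on fibronectin and 51.6, 46.6, and 49.2 CPM on Geltrex™, a change of 2.16 ± 0.20 (adjusted p = 1.6e-06). *Tnfaip3*, the ubiquitin-editing enzyme A20 that shuts the pathway down, was at 17.2, 17.1, and 20.2 CPM on fibronectin and 61.7, 55.4, and 59.5 CPM on Geltrex™, or 1.70 ± 0.10 (adjusted p = 7.6e-09). *Relb*, a subunit, was at 9.43, 9.0, and 11.4 CPM on fibronectin and 16, 17.1, and 16 CPM on Geltrex™, or 0.72 ± 0.11 (adjusted p = 0.00036), and *Vcam1*, an adhesion receptor, was at 162, 147, and 175 CPM on fibronectin and 239.7, 240.1, and 233 CPM on Geltrex™, or 0.56 ± 0.09 (adjusted p = 0.00062). No sample of 1 coating reached the range of the other in these 4 genes. A search for the kB site, by its usual consensus on either strand, found it in 5.20% of all promoters of tested genes, in 33.3% of 15 promoters of the chemokine and cytokine list, in 44.4% of 18 promoters of this list, and in 0 of 9 complement promoters. This list was made of NF-kB subunits and targets, and all the lists were chosen with earlier results of these data known. Their shares therefore describe the lists and not the difference between the coatings. *Saa3*, *Ccl2*, and *Cxcl5*, which changed more than *Cxcl1*, were not among the genes with a match. They either lack the site or had no promoter among those searched. The window of *Cxcl1*, a gene with a match, is shown with the site in capitals. It lies on GRCm38.p6 at chr5:90891154-90891204, plus strand.
Cxcl1: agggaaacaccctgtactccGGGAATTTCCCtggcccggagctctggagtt
The capitals hold 2 overlapping matches, 1 on each strand, that start 1 base apart.

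**Figure D3:**
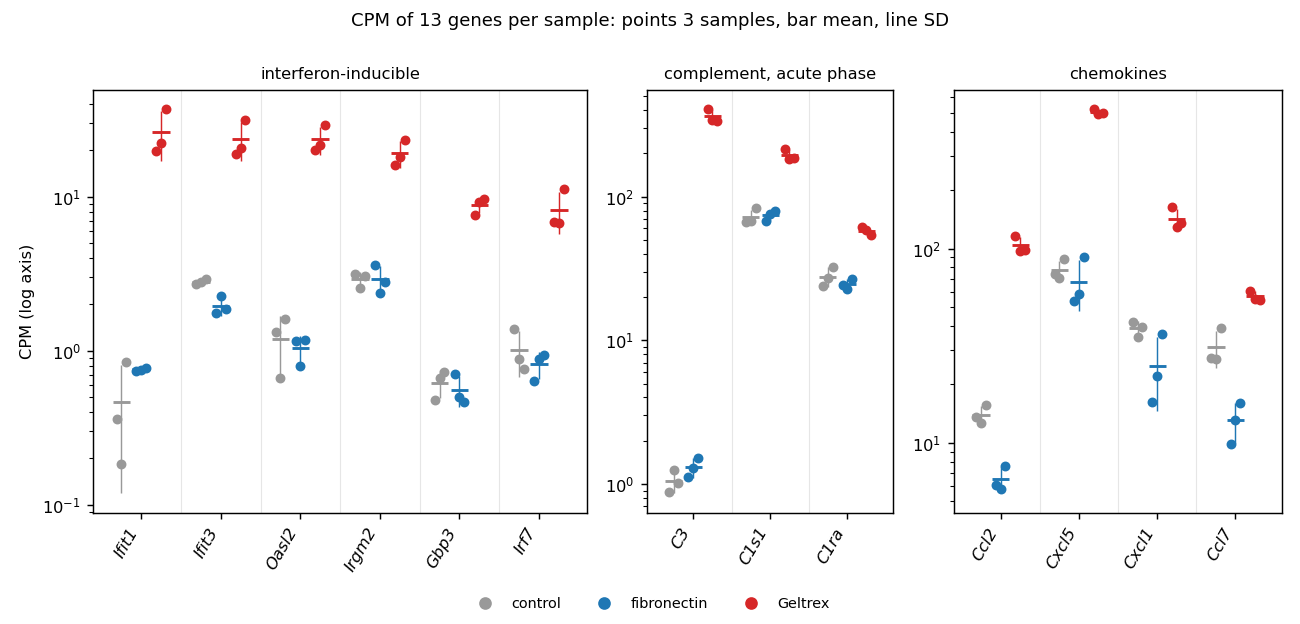
CPM of 13 interferon-inducible, complement, and chemokine genes on log axes, with 3 points per group, a bar for the mean, and a line for the SD, in the control (gray), on fibronectin (blue), and on Geltrex™ (red). In all 13 genes the Geltrex™ points lie above the fibronectin points, and for *Ccl2* and *Ccl7* the fibronectin points lie below the control.

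The genes that answer ERK, the kinase downstream of growth factor receptors and integrins, were also higher on Geltrex™. Of 24 tested 17 rose (70.8%, against 9.06% of all genes), 0 fell, and the median was 0.85. The count was 16 to 18 without any 1 sample and 13 with the Geltrex™ libraries summed. *Dusp1*, a phosphatase of stress kinases that is induced within minutes, was at 29.5, 27.7, and 80.4 CPM on fibronectin and 248, 239, and 241 CPM on Geltrex™. Fibronectin replicate 3 was well above the other 2 but below every Geltrex™ sample, and the change was 2.40 ± 0.29 (adjusted p = 2.3e-05), or 3.08 without that replicate. *Dusp5*, the nuclear ERK phosphatase, was at 4.16, 5.11, and 8.66 CPM on fibronectin and 29.5, 25.7, and 25.7 CPM on Geltrex™, or 2.17 ± 0.23 (adjusted p = 7.8e-06), and *Dusp4*, another, was at 16.5, 17.4, and 17.2 CPM on fibronectin and 40.7, 39.4, and 43.1 CPM on Geltrex™, or 1.27 ± 0.09 (adjusted p = 5.6e-08). *Fosl2* and *Egr3*, transcription factors of the FOS and EGR families, rose by 0.93 ± 0.09 (adjusted p = 1.6e-06) and 0.85 ± 0.11 (adjusted p = 3.4e-05). Their levels were 129, 109, and 116 CPM on fibronectin and 227, 221, and 225 CPM on Geltrex™ for *Fosl2* and 22.4, 25, and 25.5 CPM on fibronectin and 46.2, 42.9, and 42.3 CPM on Geltrex™ for *Egr3*, without overlap. Over the list, fibronectin replicate 3 was the highest of its group in 17 of the 24 genes and Geltrex™ replicate 1 in 16. The CArG box, the element that serum response factor binds, was in 1.36% of all promoters of tested genes and in 5 of 20 promoters of this list, which belong to only 2 genes, *Egr2* and *Dusp5*. The *Dusp5* window, at chr19:53529043-53529102, plus strand (GRCm38.p6), holds 2 adjoining boxes, given in capitals.
Dusp5: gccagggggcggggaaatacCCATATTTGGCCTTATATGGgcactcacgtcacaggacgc

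Targets of YAP, the coactivator that follows adhesion and tension, made up the strongest changes among the focal adhesion genes. Of 26 tested members of that list 6 rose (23.1%, against 9.06% of all genes), 0 fell, and the median was 0.14, so most of the adhesion machinery did not pass the test. *Ccn1*, a secreted matricellular protein and a standard YAP target, was at 62.5, 77.4, and 257 CPM on fibronectin and 1638, 1555, and 1608 CPM on Geltrex™. The Geltrex™ samples were close together and far above, while fibronectin replicate 3 lay apart from the other 2, and the change of 3.60 ± 0.40 (adjusted p = 9.9e-06) became 4.52 without that replicate. *Ccn2*, its relative, was at 110.3, 126, and 102 CPM on fibronectin and 581, 516, and 547 CPM on Geltrex™, a change of 2.28 ± 0.10 (adjusted p = 8.8e-10). *Ankrd1*, a nuclear and sarcomeric ankyrin repeat protein, was at 601, 664, and 531 CPM on fibronectin and 1679, 1710.4, and 1746 CPM on Geltrex™, or 1.52 ± 0.10 (adjusted p = 2.7e-08). *Amotl2*, a YAP target that also restrains YAP, was at 102, 93, and 113 CPM on fibronectin and 293, 284, and 283 CPM on Geltrex™, or 1.48 ± 0.08 (adjusted p = 5.8e-09). The scaffold *Bcar1* (p130Cas) was at 54.5, 55.8, and 54.1 CPM on fibronectin and 95.6, 91.6, and 91.6 CPM on Geltrex™, or 0.76 ± 0.07 (adjusted p = 2.0e-06). The coatings did not overlap in these 5 genes, and the log2 fold change of *Ccn2* from the control was 2.50 on Geltrex™ and 0.22 on fibronectin.

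The receptors for the coatings themselves moved in both directions. Of 27 tested matrix receptors 4 were higher and 5 lower, with a median of -0.03, shares of 14.8% and 18.5% against 9.06% and 10.3% of all genes. The 4 higher became 2 without fibronectin replicate 1 or 2 or Geltrex™ replicate 1 or 3, and the 5 lower became 2 or 3 without any sample other than fibronectin replicate 3. *Itga5*, the α chain of the main fibronectin receptor, was at 144, 122, and 143 CPM on fibronectin and 146, 141, and 143 CPM on Geltrex™, a difference of 0.08 ± 0.08 (adjusted p = 0.56), and the groups overlapped. *Itga6*, a laminin receptor chain, was at 189, 167, and 148 CPM on fibronectin and 193, 183, and 185 CPM on Geltrex™, or 0.16 ± 0.12 (adjusted p = 0.41), also overlapping. *Itgb1*, the β chain common to both receptors, was lower on Geltrex™, at 2086, 2305, and 1978 CPM on fibronectin and 1697, 1704, and 1731 CPM on Geltrex™, a change of -0.31 ± 0.10 (adjusted p = 0.042). That call was lost when any 1 sample other than fibronectin replicate 3 was left out. *Itgb3*, the partner of αv in another fibronectin receptor, was at 47.5, 50.4, and 48.6 CPM on fibronectin and 24.2, 25.6, and 21.4 CPM on Geltrex™, and fell without overlap, a change of -1.04 ± 0.11 (adjusted p = 8.5e-06). *Itga8*, also an α chain of receptors for fibronectin and related ligands, was at 3.38, 3.89, and 3.57 CPM on fibronectin and 1.49, 1.32, and 1.4 CPM on Geltrex™, or -1.36 ± 0.23 (adjusted p = 0.00067). On the other side *Bcam*, a laminin-binding surface protein, was at 3.79, 2.76, and 3.96 CPM on fibronectin and 6.45, 5.93, and 6.18 CPM on Geltrex™, or 0.81 ± 0.18 (adjusted p = 0.0039). The other receptors of the list that passed are not named here. *Itga7*, the laminin receptor chain of muscle, is counted in the myogenic list below and not among these 27. It was at 783, 493, and 786 CPM on fibronectin and 1128, 1122, and 1099 CPM on Geltrex™, or 0.70 ± 0.16 (adjusted p = 0.0061). *Itgb3* and *Itga8* were the 2 receptors that still passed with the Geltrex™ libraries summed.

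The genes of the matrix that the cells make were split. *Fn1*, fibronectin itself, was at 8093, 8573, and 9152 CPM on fibronectin and 6901, 7204, and 7665 CPM on Geltrex™, a difference of -0.25 ± 0.10 (adjusted p = 0.089) that did not pass, although the groups did not overlap and the gene passed with DESeq2. *Lama1*, the laminin chain of the extract, had 9 and 12 counts in all and was not tested. Among 22 tested basement membrane genes 6 were higher and 6 lower (27.3% each, against 9.06% and 10.3% of all genes), with a median of 0.03. The laminin chains *Lama4* (24.9, 27.3, and 27.5 CPM on fibronectin and 45.1, 42.3, and 45.3 CPM on Geltrex™) and *Lamb1* (201, 201, and 219.6 CPM on fibronectin and 282, 282, and 281 CPM on Geltrex™) and the proteoglycan *Agrn* (32.5, 28.3, and 35 CPM on fibronectin and 47.3, 52.8, and 50.004 CPM on Geltrex™) rose by 0.73 ± 0.10 (adjusted p = 7.6e-05), 0.44 ± 0.07 (adjusted p = 0.00026), and 0.65 ± 0.09 (adjusted p = 0.00015). The epithelial laminin chain *Lamb3* (17.2, 16.5, and 17.4 CPM on fibronectin and 10.7, 10.9, and 9.24 CPM on Geltrex™) and the Collagen XVIII gene *Col18a1* (73.2, 72.7, and 70.1 CPM on fibronectin and 38.5, 40.2, and 38 CPM on Geltrex™) changed by -0.73 ± 0.11 (adjusted p = 0.00016) and -0.89 ± 0.14 (adjusted p = 0.00032). In these 5 genes the coatings did not overlap.

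Interstitial matrix genes were more often lower: 13 of 36 tested against 6 higher, or 36.1% against a background of 10.3%, with a median of -0.03, and 4 lower and 0 higher with the Geltrex™ libraries summed. The 13 became 8 without fibronectin replicate 2 and 8, 7, and 8 without Geltrex™ replicates 1, 2, and 3. *Lum*, a small proteoglycan that spaces collagen fibrils, was at 51, 44.8, and 65.7 CPM on fibronectin and 20.7, 19.4, and 17.4 CPM on Geltrex™, a change of -1.49 ± 0.15 (adjusted p = 4.1e-06). *Col14a1*, a fibril-associated collagen, was at 45.3, 40.4, and 46.5 CPM on fibronectin and 21.6, 21.3, and 18.3 CPM on Geltrex™, or -1.11 ± 0.13 (adjusted p = 1.6e-05). The elastic fiber proteins *Fbln2* and *Fbln5* changed by -0.75 ± 0.08 (adjusted p = 3.5e-06) and -0.68 ± 0.11 (adjusted p = 0.00051), and the fibril collagen *Col5a2* by -0.48 ± 0.09 (adjusted p = 0.0018). Their levels were 262, 276, and 257 CPM on fibronectin and 155, 162, and 155 CPM on Geltrex™ for *Fbln2*, 50.5, 54.7, and 47.9 CPM on fibronectin and 32.6, 31.7, and 31.4 CPM on Geltrex™ for *Fbln5*, and 1083, 1028, and 902 CPM on fibronectin and 722, 730.0, and 713 CPM on Geltrex™ for *Col5a2*, all without overlap. Proteases and their inhibitors were more often higher, with 9 of 22 up and 1 down (40.9% and 4.55%, against 9.06% and 10.3% of all genes) and a median of 0.34. *Plau*, the urokinase that activates plasminogen, was at 333, 262, and 284 CPM on fibronectin and 508, 506, and 499 CPM on Geltrex™, a change of 0.78 ± 0.09 (adjusted p = 1.4e-05). *Serpine2*, a serine protease inhibitor, rose by 0.63 ± 0.10 (adjusted p = 0.00036), and *Adamts1*, a protease of proteoglycans, by 0.60 ± 0.10 (adjusted p = 0.00043). The 1 member that fell was *Timp3*, a matrix-bound inhibitor of metalloproteinases, at 435, 474, and 347 CPM on fibronectin and 199, 187, and 205 CPM on Geltrex™, or -1.09 ± 0.13 (adjusted p = 2.3e-05).

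The muscle program differed by less, and its differences lay within the gap that both coatings had to the control. Of the fast fiber sarcomere genes 6 of 13 tested rose on Geltrex™ (46.2%), of the slow fiber genes 4 of 15 (26.7%), and of the developmental genes 6 of 10 (60%), against 9.06% of all genes. In any of the 3 lists 0 fell, and the medians were 0.45, 0.13, and 0.35. With the Geltrex™ libraries summed 4, 1, and 3 passed, and the 4 slow fiber genes were 2 without Geltrex™ replicate 1 or 3. The medians from the control were -1.33 on Geltrex™ and -1.71 on fibronectin for the fast list. They were -1.65 and -1.76 for the slow list, and -1.45 and -1.77 for the developmental list. *Acta1*, skeletal α-actin, was at 519, 402, and 485 CPM on fibronectin and 795, 716, and 739 CPM on Geltrex™ and in the control at 1918, 1875, and 1559.8 CPM. Geltrex™ thus lay between fibronectin and the control, 0.68 ± 0.10 (adjusted p = 0.00026) above fibronectin. *Actc1*, cardiac α-actin of developing muscle, was at 15.2, 14.5, and 12.4 CPM on fibronectin and 33.7, 27.7, and 27.8 CPM on Geltrex™, a change of 1.08 ± 0.14 (adjusted p = 4.2e-05) and the 1 DEG of these lists. The fast light chains *Mylpf* (834, 687, and 833 CPM on fibronectin and 1264, 1224, and 1218 CPM on Geltrex™) and *Myl1* (370.0, 269, and 350.3 CPM on fibronectin and 576, 552, and 547 CPM on Geltrex™) rose by 0.65 ± 0.09 (adjusted p = 7.4e-05) and 0.76 ± 0.10 (adjusted p = 9.6e-05). *Ttn*, titin, was at 377, 427, and 419.7 CPM on fibronectin and 576, 673, and 909 CPM on Geltrex™, or 0.82 ± 0.14 (adjusted p = 0.0005), with Geltrex™ replicate 3 highest. *Tnnc1* and *Tnni1*, slow troponins, rose by 0.32 ± 0.09 (adjusted p = 0.015) and 0.37 ± 0.11 (adjusted p = 0.03).

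The myosin heavy chains that define fiber types did not follow. *Myh7*, the slow chain, was at 11.3, 11.1, and 8.19 CPM on fibronectin and 10.6, 8.65, and 10.9 CPM on Geltrex™, a difference of -0.03 ± 0.18 (adjusted p = 0.94). *Myh4*, the fast IIb chain, was at 15.7, 13.3, and 7.34 CPM on fibronectin and 10.3, 8.82, and 10.8 CPM on Geltrex™, or -0.29 ± 0.20 (adjusted p = 0.33), and *Myh1*, the fast IIx chain, was at 119, 105, and 82.7 CPM on fibronectin and 104, 95.3, and 108 CPM on Geltrex™, or 0.00 ± 0.11 (adjusted p = 0.99). The coatings overlapped in all 3 genes, and the sign of *Myh7* and *Myh1* depended on the samples used. *Myh4* passed only without fibronectin replicate 3, with a change of -0.55 (adjusted p = 0.0084). *Tnnt1* and *Myl2*, slow troponin T and the slow regulatory light chain, differed by 0.14 ± 0.11 (adjusted p = 0.41) and -0.16 ± 0.16 (adjusted p = 0.51), with overlap. *Myh8*, the perinatal chain, was at 35.3, 32.5, and 22.2 CPM on fibronectin and 53.4, 38.4, and 49.7 CPM on Geltrex™, and rose by 0.65 ± 0.17 (adjusted p = 0.012).

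Among 18 tested myogenic and fusion genes 4 rose and 3 fell (22.2% and 16.7%, against 9.06% and 10.3% of all genes), with a median of -0.03. The 4 became 2 without fibronectin replicate 2 and 0 with the Geltrex™ libraries summed, and the 3 became 2 in both. *Myod1*, the determination factor, was at 112, 114, and 106 CPM on fibronectin and 106, 109.7, and 105 CPM on Geltrex™, a difference of -0.05 ± 0.09 (adjusted p = 0.73), and *Myog*, the differentiation factor, was at 74, 49.9, and 66.9 CPM on fibronectin and 84.1, 79.5, and 77.7 CPM on Geltrex™, or 0.34 ± 0.12 (adjusted p = 0.071). *Pax7*, the satellite cell factor, was below 1 CPM throughout, at 0.334, 0.544, and 0.583 CPM on fibronectin and 0.128, 0.206, and 0.316 CPM on Geltrex™, or -1.15 ± 0.52 (adjusted p = 0.13). None of these 3 passed the test. *Mymk*, the fusion protein myomaker, was at 102, 76.4, and 89.9 CPM on fibronectin and 147, 130.4, and 138 CPM on Geltrex™, and rose by 0.63 ± 0.12 (adjusted p = 0.0016), although the call was lost with the Geltrex™ libraries summed. *Six4*, a homeodomain factor of muscle precursors, was at 104, 102, and 85.9 CPM on fibronectin and 47, 48.7, and 54.3 CPM on Geltrex™, and fell without overlap, with a log2 fold change of -0.96 ± 0.10 (adjusted p = 6.4e-06). Among 31 calcium handling genes 7 rose (22.6%) and 3 fell (9.68%, near the background). The 7 became 1 without fibronectin replicate 2, 3 without Geltrex™ replicate 1, and 1 with the Geltrex™ libraries summed. *Trdn*, triadin of the calcium release complex, was at 19.2, 16.3, and 14.8 CPM on fibronectin and 26.6, 26.8, and 24.9 CPM on Geltrex™, a change of 0.64 ± 0.11 (adjusted p = 0.00081). *Hdac9*, which represses MEF2 targets, was at 44.5, 45.2, and 29.4 CPM on fibronectin and 18.1, 19.4, and 18.9 CPM on Geltrex™, or -1.08 ± 0.15 (adjusted p = 0.0001), and *Camk4*, a calmodulin kinase, fell on levels below 1 CPM, a change of -2.50 ± 0.56 (adjusted p = 0.005). In bulk RNA, fewer cells of a kind and less RNA per cell cannot be told apart.

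Sterol and fatty acid synthesis genes were lower on Geltrex™. Of 33 tested genes 23 were lower on Geltrex™ and 0 were higher, or 69.7% against a background of 10.3%, with a median of -0.49 and 4 DEGs. Leaving out any 1 sample left 18 to 24, and summing the Geltrex™ libraries left 10. The median difference from the control was 0.41 on fibronectin and -0.08 on Geltrex™. *Hmgcs1*, which makes HMG-CoA at the head of the mevalonate pathway, was at 915, 952, and 616 CPM on fibronectin and 318, 317, and 325 CPM on Geltrex™ and in the control at 362, 473, and 366 CPM. The fibronectin samples were the high ones, with replicate 3 the lowest of them, and the difference between the coatings was -1.37 ± 0.14 (adjusted p = 6.4e-06). *Mvd*, later in the same pathway, was at 37, 31.4, and 26.9 CPM on fibronectin and 16.3, 15, and 14.9 CPM on Geltrex™, or -1.05 ± 0.13 (adjusted p = 3.2e-05). *Sqle*, the epoxidase that commits squalene to sterols, was at 601, 595, and 534 CPM on fibronectin and 337, 325, and 335 CPM on Geltrex™, or -0.79 ± 0.09 (adjusted p = 9.4e-06), and *Fdft1*, squalene synthase, was at 336, 324, and 313 CPM on fibronectin and 225, 214, and 235 CPM on Geltrex™, or -0.53 ± 0.07 (adjusted p = 7.8e-05). *Msmo1*, a sterol demethylase, was at 376, 371, and 307 CPM on fibronectin and 198, 203, and 195 CPM on Geltrex™, or -0.82 ± 0.11 (adjusted p = 5.3e-05). None of these overlapped, and fibronectin replicate 3 was the lowest of its group in 24 of the 33 genes. The sterol regulatory element, searched as TCACNCCAC on either strand, was in 1.15% of all promoters of tested genes and in 1 of 27 of this list, that of *Hmgcs1*, at chr13:119690194-119690242, plus strand (GRCm38.p6), with the element in capitals.
Hmgcs1: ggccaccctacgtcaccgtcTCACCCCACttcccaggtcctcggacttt

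Stress genes moved in both directions. Of 25 tested genes of the ATF4 response and serine synthesis, 4 were higher and 10 lower (16% and 40%, against 9.06% and 10.3% of all genes), with a median of -0.27. *Atf3*, a stress-induced repressor, was at 4.75, 5.36, and 4.31 CPM on fibronectin and 68, 64.1, and 64.9 CPM on Geltrex™, with all Geltrex™ samples over 10 times the fibronectin samples and a change of 3.77 ± 0.12 (adjusted p = 1.3e-11). *Atf4* itself was at 257, 229, and 248 CPM on fibronectin and 441, 423, and 424 CPM on Geltrex™, or 0.81 ± 0.10 (adjusted p = 3.9e-05). Among those that fell, *Ddit4* (REDD1), an inhibitor of mTOR, was at 30.2, 23.4, and 28.2 CPM on fibronectin and 6.02, 6.22, and 5.46 CPM on Geltrex™, or -2.21 ± 0.15 (adjusted p = 5.0e-08), *Bcat1*, a transaminase of branched-chain amino acids, was at 43.2, 52.7, and 37.9 CPM on fibronectin and 12.5, 14, and 11.8 CPM on Geltrex™, or -1.81 ± 0.13 (adjusted p = 7.7e-08), and *Nupr1*, a stress-induced nuclear protein, was at 94.4, 118, and 83.8 CPM on fibronectin and 37.5, 37.8, and 39.9 CPM on Geltrex™, or -1.36 ± 0.15 (adjusted p = 1.3e-05). Relative to the control, *Ddit4* and *Nupr1* differed by 0.12 and -0.38 on fibronectin, whereas *Bcat1* was higher on fibronectin by 2.0 on the log2 scale. Of 15 genes of the NRF2 antioxidant response and metallothioneins 6 were lower (40%) and 1 higher (6.67%). The shares of all genes were 10.3% and 9.06%, and the median of the list was -0.32. *Gclc* and *Gclm*, the subunits of the enzyme that starts glutathione synthesis, were at 63.5, 81, and 60.2 CPM on fibronectin and 40.4, 40.4, and 39.7 CPM on Geltrex™ and at 73.1, 89.5, and 69.3 CPM on fibronectin and 45.8, 44.8, and 50.6 CPM on Geltrex™. They fell, with changes of -0.76 ± 0.12 (adjusted p = 0.00036) and -0.71 ± 0.10 (adjusted p = 8.2e-05), and so did *Txnrd1*, thioredoxin reductase, with -0.43 ± 0.08 (adjusted p = 0.0012). The 1 that rose, *Osgin1*, did so by 1.09 ± 0.17 (adjusted p = 0.00032).

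Energy metabolism differed by small amounts. In the glycolysis and hypoxia list 40% of tested genes were higher and 3.33% lower, against 9.06% and 10.3% of all genes. Of 30 tested glycolysis and hypoxia genes 12 were higher and 1 lower, with a median of 0.31, but 2 higher and 0 lower passed with the Geltrex™ libraries summed, and the 12 were 8 without fibronectin replicate 2 or Geltrex™ replicate 1 or 2. *Hif1a*, the hypoxia factor, was at 368, 420.1, and 308 CPM on fibronectin and 313, 308, and 316 CPM on Geltrex™, a difference of -0.23 ± 0.13 (adjusted p = 0.25) with overlap. *Adm*, adrenomedullin, a secreted vasodilator peptide and hypoxia target, was at 0.594, 0.628, and 0.738 CPM on fibronectin and 5.77, 5.48, and 5.82 CPM on Geltrex™, a change of 3.11 ± 0.20 (adjusted p = 3.7e-08). The glucose transporter *Slc2a1* was at 69.9, 68.1, and 67 CPM on fibronectin and 95.1, 90.9, and 89.4 CPM on Geltrex™, or 0.43 ± 0.07 (adjusted p = 0.00061), and the pyruvate dehydrogenase kinase *Pdk1* was at 109, 104, and 94.7 CPM on fibronectin and 144, 139.8, and 137 CPM on Geltrex™, or 0.45 ± 0.09 (adjusted p = 0.0026). Of 50 oxidative phosphorylation genes 7 were higher (14%, against 9.06% of all genes) and 0 lower, with a median of 0.19. The count of 7 rested on 1 or another sample: it was 0 without fibronectin replicate 2 and 21 without fibronectin replicate 3. Fibronectin replicate 3 was the highest of its group in 42 of the 50 genes and replicate 2 the lowest in 36. *Ppargc1a*, the mitochondrial coactivator, was at 2.41, 1.76, and 1.51 CPM on fibronectin and 1.41, 1.52, and 1.62 CPM on Geltrex™, a difference of -0.32 ± 0.27 (adjusted p = 0.42) with overlap. Of 25 genes of fatty acid use and mitochondrial regulation 3 were higher and 2 lower, and these shares of 12% and 8.0% are near those of all genes. The 3 became 1 without fibronectin replicate 2 or Geltrex™ replicate 1. *Lpl*, the lipase that frees fatty acids for uptake, was at 34.5, 37, and 48.4 CPM on fibronectin and 107, 109, and 108 CPM on Geltrex™, or 1.44 ± 0.12 (adjusted p = 3.9e-07), and *Pdk4*, which spares glucose, was at 49.95, 56.3, and 40.2 CPM on fibronectin and 26.3, 24.7, and 28.4 CPM on Geltrex™, or -0.88 ± 0.13 (adjusted p = 0.00013).

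Cell cycle genes differed little in their medians. Of 36 DNA replication genes 4 were higher (11.1%, near the 9.06% of all genes) and 0 lower. Of 44 mitosis genes 0 were higher and 2 lower (4.55%, below the 10.3% of all genes). The medians were 0.10 and -0.06. The 4 became 0 to 2 without any sample other than fibronectin replicate 3, and the 2 became 0 without fibronectin replicate 2 or Geltrex™ replicate 1. Of 24 genes of cell cycle entry and exit 4 were higher and 5 lower (16.7% and 20.8%, against 9.06% and 10.3% of all genes), with a median of 0.01, and 1 and 1 passed with the Geltrex™ libraries summed. The 4 became 2 without fibronectin replicate 1 or 2 or Geltrex™ replicate 1 or 3. In the replication and mitosis lists the 2 coatings were above the control, with medians of 0.76 on Geltrex™ and 0.73 on fibronectin for replication and 1.49 and 1.57 for mitosis. *Ccnd1*, the G1 cyclin, was at 42.5, 46.7, and 41.8 CPM on fibronectin and 67.7, 61.8, and 63.4 CPM on Geltrex™, a change of 0.56 ± 0.09 (adjusted p = 0.00055), and *Cdkn1b*, the inhibitor p27, was at 149, 153, and 151 CPM on fibronectin and 88, 89.7, and 86.4 CPM on Geltrex™, or -0.78 ± 0.08 (adjusted p = 3.4e-06). Neither overlapped. Growth factor and TGF-β genes were split, with 9 of 26 higher (34.6%) and 4 lower (15.4%), against 9.06% and 10.3% of all genes. *Smad7*, the inhibitor of TGF-β receptors, was at 10.2, 9.42, and 13 CPM on fibronectin and 22.7, 24, and 26.1 CPM on Geltrex™, a change of 1.16 ± 0.14 (adjusted p = 3.8e-05). *Irs1* and *Irs2*, the adaptors of the insulin and IGF receptors, were at 54.1, 55.1, and 49.3 CPM on fibronectin and 84.5, 82.2, and 91.1 CPM on Geltrex™ and at 17.9, 18.5, and 20.2 CPM on fibronectin and 34.3, 34.3, and 34 CPM on Geltrex™. They rose by 0.70 ± 0.11 (adjusted p = 0.00035) and 0.86 ± 0.09 (adjusted p = 5.0e-06), while *Igf1*, the ligand, was at 356, 397, and 335 CPM on fibronectin and 238, 236, and 246 CPM on Geltrex™, or -0.60 ± 0.11 (adjusted p = 0.00092). Of 11 tested Notch genes 1 was higher (9.09%, near the 9.06% of all genes) and 2 were lower (18.2%, against 10.3%). *Notch1* rose by 0.45 ± 0.14 (adjusted p = 0.038), *Heyl* changed by -0.53 ± 0.13 (adjusted p = 0.011), and *Jag1* by -0.38 ± 0.09 (adjusted p = 0.0085). The call of *Notch1* was lost without any 1 of the 6 samples, and that of *Heyl* without fibronectin replicate 1 or Geltrex™ replicate 2.

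**Figure D4:**
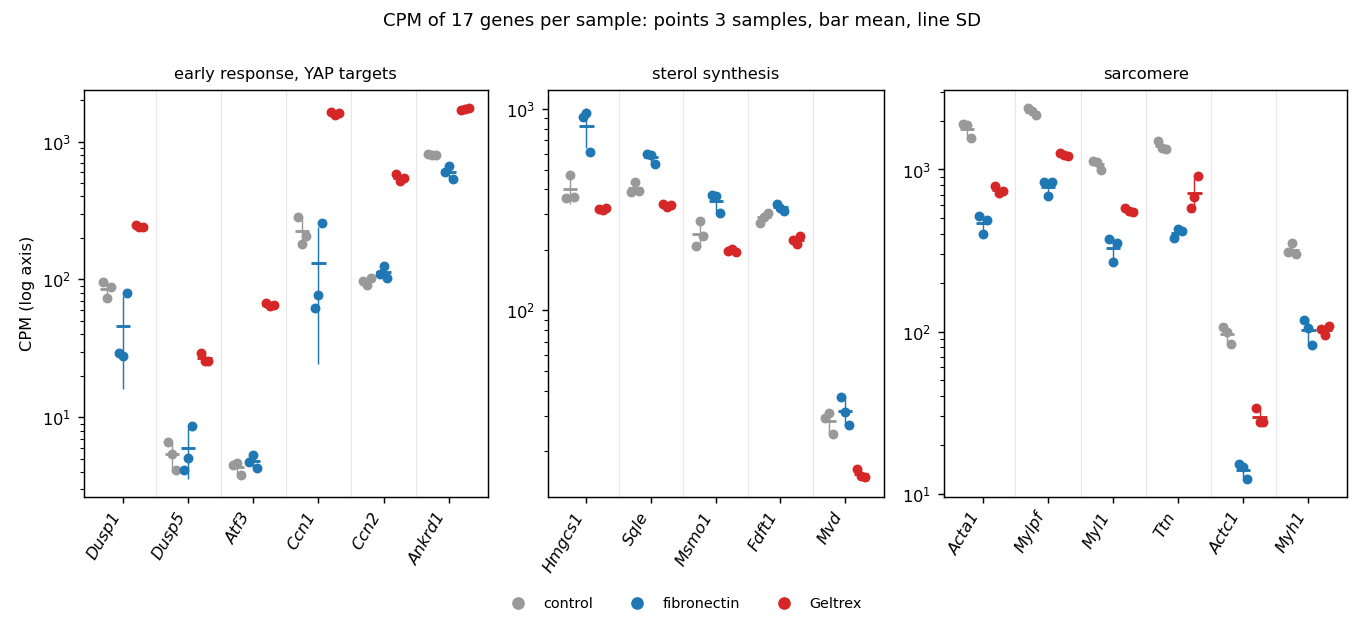
CPM of 17 early response, sterol synthesis, and sarcomere genes on log axes, with 3 points per group, a bar for the mean, and a line for the SD, in the control (gray), on fibronectin (blue), and on Geltrex™ (red). Fibronectin replicate 3 stands above its group for *Dusp1* and *Ccn1*, the sterol genes are highest on fibronectin, and in the sarcomere genes except *Myh1* Geltrex™ lies between fibronectin and the control.

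Among DEGs at 1 CPM or more on average and without overlap, the 12 with the largest decreases on Geltrex™ were of mixed kinds. The one with the most reads was *Txnip*, an inhibitor of thioredoxin and of glucose uptake, at 332, 294, and 163 CPM on fibronectin and 59.8, 61.4, and 54.2 CPM on Geltrex™. All Geltrex™ samples were below all fibronectin samples, although fibronectin replicate 3 was lower than its group, and the change was -2.17 ± 0.20 (adjusted p = 1.8e-06). *Anxa8*, a membrane-binding annexin, was at 122, 151, and 106 CPM on fibronectin and 26.8, 25.4, and 25.1 CPM on Geltrex™, or -2.29 ± 0.12 (adjusted p = 5.3e-09), and in the control at 119.8, 112, and 109.5 CPM. *Slc40a1*, the iron exporter ferroportin, was at 25.5, 21.8, and 17 CPM on fibronectin and 3.8, 3.79, and 5.55 CPM on Geltrex™, or -2.29 ± 0.19 (adjusted p = 4.9e-07). *Bmf*, a pro-death BH3 protein linked to loss of cell attachment, was at 24.1, 17.1, and 22.5 CPM on fibronectin and 5.04, 4.08, and 4.73 CPM on Geltrex™, or -2.20 ± 0.17 (adjusted p = 1.8e-07). *Ppp1r3c*, a glycogen-targeting phosphatase subunit, was at 7.65, 7.45, and 7.15 CPM on fibronectin and 1.62, 1.69, and 1.8 CPM on Geltrex™, or -2.12 ± 0.17 (adjusted p = 2.7e-07). The matrix proteases *Tll1*, which cleaves procollagen, and *Adamts16* were at 3.05, 4.4, and 2.52 CPM on fibronectin and 0.513, 0.618, and 0.676 CPM on Geltrex™ and at 7.58, 8.67, and 6.95 CPM on fibronectin and 1.67, 1.81, and 0.902 CPM on Geltrex™. They changed by -2.45 ± 0.28 (adjusted p = 1.5e-05) and -2.39 ± 0.21 (adjusted p = 9.2e-07), and neither overlapped between the coatings. The other 5, *Tspan8*, *Ddit4*, *Acsbg1*, *Zfp493*, and the predicted gene *Gm12258*, changed by between -2.35 and -2.12. *Acsbg1* was the exception in its reference level: its log2 fold change from the control was 2.08 on fibronectin and -0.09 on Geltrex™.

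At the other end, by the same limits, the 12 largest increases were *C3*, *Oas2*, *Trim30a*, *Oas1a*, *Saa3*, *Ifi44*, *Iigp1*, *Ifit1*, *Usp18*, *Apol8*, *Oasl2*, and *Ccl2*. *Apol8*, an apolipoprotein L, was the only one that is in none of the lists, at 0.409, 0.293, and 0.388 CPM on fibronectin and 8.97, 7.66, and 10.4 CPM on Geltrex™, a change of 4.6 ± 0.26 (adjusted p = 7.3e-09). Markers of other cell types were few. Of 8 endothelial markers only *Tek*, an angiopoietin receptor, could be tested, at 3.31, 2.85, and 1.98 CPM on fibronectin and 0.555, 0.989, and 1.31 CPM on Geltrex™, and it fell, a change of -1.51 ± 0.33 (adjusted p = 0.0045). The adipocyte markers summed to 19.0 to 20.6 CPM on fibronectin and 17.7 to 18.8 on Geltrex™, the osteochondrogenic markers to 171 to 201 and 179 to 195 CPM, and none of the 4 that could be tested passed. Their part in the results above was not tested. How strand was used in counting is not given, and of the genes named here *C1s1*, *Ccn2*, *Ccnd1*, *Dusp5*, *Fdft1*, *Gbp7*, *Hmgcs1*, *Irs1*, *Tapbp*, *Timp3*, and *Txnip* share over 10% of their exon bases with another annotated gene.

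**Figure D5:**
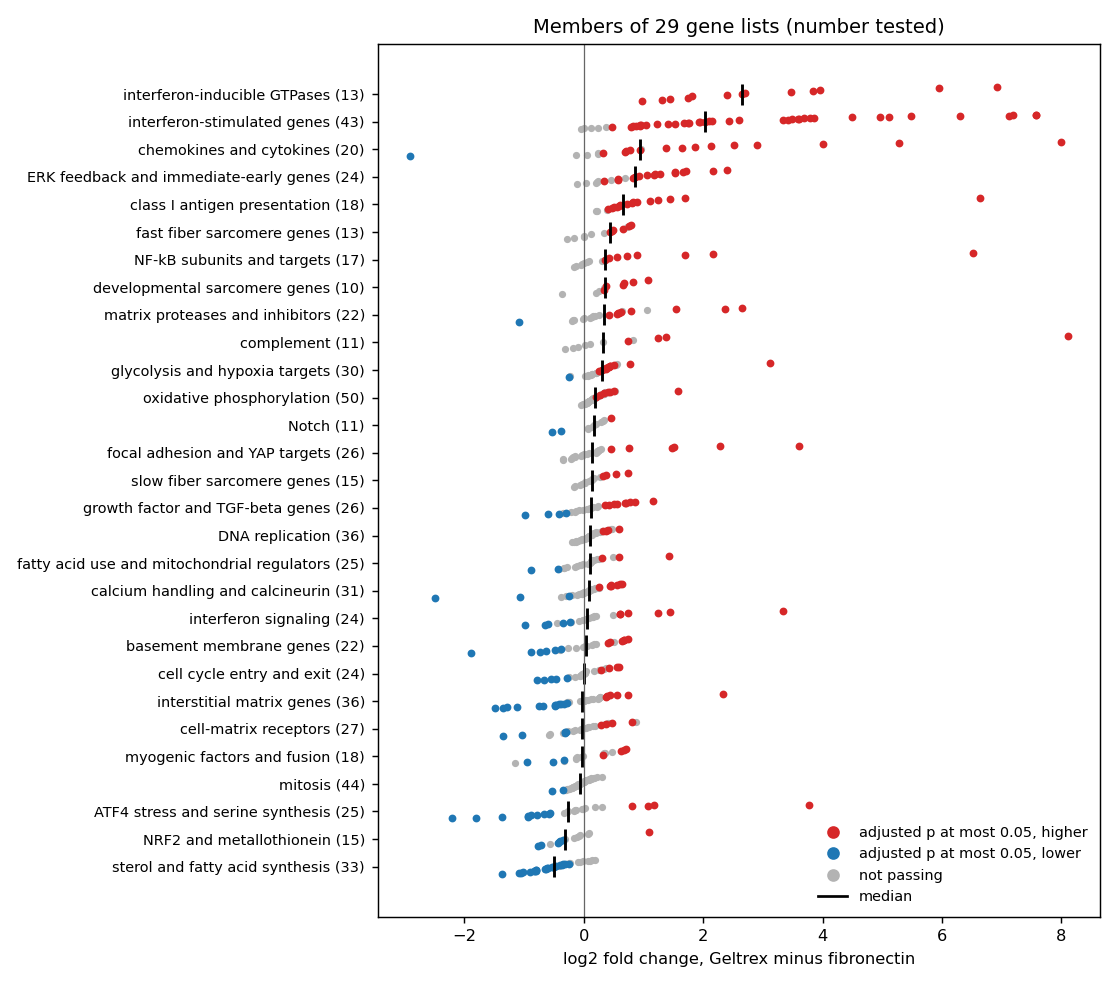
Log2 fold changes, Geltrex™ minus fibronectin, of the tested members of 29 gene lists with at least 10 tested members, ordered by their median (black bar). Red and blue points passed an adjusted p of 0.05, and the interferon-stimulated, interferon-inducible GTPase, chemokine and cytokine, and ERK lists lie to the right and the sterol list to the left, with medians of 2.65 for the interferon-inducible GTPases and -0.49 for sterol and fatty acid synthesis.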

How the data were processed

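RNA-seq of the 12 samples was read from 1 table of raw read counts per gene. The submitters' processing notes name Trimmomatic, HISAT2, and featureCounts, by which the authors trimmed, aligned, and counted the reads, and the deposited counts were neither normalized nor filtered. The genome build, the annotation, and the rules for strand and multiply mapped reads are not given in the sources used here. All 55536 identifiers were in GENCODE M21 (GRCm38), which gave names, positions, and exon overlaps, and promoter sequences came from RefSeq on GRCm38.p6.

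Counts were analysed with edgeR 4.0.16 (R 4.3.3): the filterByExpr filter (minimum count 10, minimum total 15), TMM scaling, and a quasi-likelihood model over all 4 groups with 8 residual degrees of freedom, in which the contrast was Geltrex™ minus fibronectin. The standard error was the size of the log2 fold change divided by the root of the F statistic, and DEGs needed a 2-fold change besides an adjusted p of 0.05 or less. Ratios for genes with 1 to 3 counts on fibronectin carry exact (Clopper-Pearson) intervals. Reads have no molecular identifiers, so intervals cover counting error only. The procedure was also run on simulated data in which each gene had the same spread in all groups. That run cannot tell how the smaller spread of the Geltrex™ samples affects the calls.

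Genes named are the 12 DEGs at each end of the log2 fold changes, among those at 1 CPM or more on average and without overlap, up to 5 members of each list with the smallest p among those passing, and *Fn1*, *Itga5*, *Itgb1*, *Itga6*, *Lama1*, *Myh7*, *Myh4*, *Myh1*, *Tnnt1*, *Myl2*, *Hif1a*, *Ppargc1a*, *Pax7*, *Myod1*, *Myog*, and *C3*, and a few genes that meet this rule are not reported here. The comparison, the lists, and these genes were chosen with earlier results of these data known, so lists are described by counts and medians beside all genes, with no test of a list. Alternatives were DESeq2 1.42.0, RLE scaling, no filter, at least 10 counts in every sample, only the 6 samples, a block for replicate number, leaving out each sample, and summing the Geltrex™ libraries. Depth was 22520404 to 27351766 counts per sample.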

Additional observations from a re-analysis of the deposited data

How the results depend on the processing

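The 577 DEGs became 361 when at least 10 counts were required in every sample (356 shared, with 12486 genes tested), 353 with the Geltrex™ libraries summed into 1 (347 shared), and 150 past a log2 fold change of 2, where 74.0% were higher on Geltrex™ in place of 56.8%. The 2805 genes at an adjusted p of 0.05 became 703 with the libraries summed (698 shared). Leaving out 1 sample gave 489 to 668 DEGs and 1717 to 3270 genes at an adjusted p of 0.05, with 1867 without fibronectin replicate 2 and 1717, 1753, and 1825 without Geltrex™ replicates 1, 2, and 3, and 55.3% to 57.7% of DEGs higher. The cause was not tested beyond the smaller number of samples or genes in these fits. DESeq2 gave 580 DEGs, RLE scaling 576, no filter 682, and the 6 samples alone 585. With the replicate number as a block there were 575 DEGs and 2799 genes at an adjusted p of 0.05. The block is no sign of pairing, since deviations of same-numbered samples correlated at 0.0075, -0.045, and -0.018.

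Of 169 named genes tested, 156 passed, and of these DESeq2 and RLE scaling lost 0, and so did the stricter filter and the 6 samples alone among the 151 and 168 named genes that they tested, no filter lost 4, the block lost 1 (*Atp5c1*), leaving out 1 sample lost 2 to 17, and the summed libraries lost 46. *Fn1* passed with DESeq2, with no filter, and in the 6 samples alone, and *Myog* with DESeq2, with no filter, with the block, and without fibronectin replicate 1. The sign turned for *Myh7* (-0.16 to 0.073 without 1 sample, and above 0 without fibronectin replicate 1 or 2 or Geltrex™ replicate 2) and for *Myh1* (-0.13 to 0.13 without 1 sample, below 0 without fibronectin replicate 3 or Geltrex™ replicate 1 or 3, and -0.00096 with the libraries summed), neither of which passed in any fit. Genes below about 1 CPM, such as *Camk4*, *Cox7a1*, and *Pax7*, have wide errors at this depth.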

Other observations

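A few groups lay outside the lists, and the genes named here were chosen after their values were seen. Genes of the zinc finger family named Zfp with a number, most of which encode repressors that bind DNA, were lower on Geltrex™ more often than other genes: of 307 tested, 108 were lower (35.2%, against 10.3% of all genes) and 13 were higher, 27 of the lower ones and 0 of the higher ones were DEGs, and their median log2 fold change was -0.27. The family was not tested as a set, and its members are similar in sequence, so reads may be shared among them.

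Among DEGs of signaling that no list held, *Myc*, a growth-promoting transcription factor, rose from a mean of 14.1 CPM on fibronectin to 99.7 CPM on Geltrex™ (n = 3 each), a log2 fold change of 2.83 ± 0.19. *Sgk1*, a kinase induced by serum and glucocorticoids, rose from 36.9 to 199 CPM, a change of 2.43 ± 0.12, and *Edn1*, the peptide endothelin-1, rose from 1.08 to 10.3 CPM, a change of 3.25 ± 0.25. *Ptgs2*, the inducible cyclooxygenase, rose from 19.1 to 65.1 CPM, a change of 1.77 ± 0.15. In the other direction *Alcam*, a cell adhesion molecule, went from 43.3 to 13.8 CPM, a change of -1.65 ± 0.12. *Cxcr4*, a chemokine receptor of migrating muscle precursors, went from 48.3 to 19.4 CPM, a change of -1.32 ± 0.10, and *Lgr6*, a receptor that strengthens Wnt signals, from 12.8 to 3.34 CPM, a change of -1.94 ± 0.15. In all 7 genes the 3 samples of each coating stood apart from the 3 of the other. Relative to the control, *Cxcr4* was lower on both coatings, with log2 fold changes of -1.96 on Geltrex™ and -0.64 on fibronectin, while *Alcam* was -0.69 on Geltrex™ and 0.95 on fibronectin.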
